A study of Mus musculus with 4 samples.

Results

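Macrophages activated by microbial products and interferon-gamma (classical activation) and macrophages activated by the type 2 cytokines IL-4 and IL-13 (alternative activation) are told apart by a small set of genes. The best known of these encode enzymes that compete for arginine. Nitric oxide synthase turns it into nitric oxide, which is toxic to microbes, and arginase turns it into ornithine and urea, which feed polyamine and collagen synthesis. In the lung, macrophages of the air spaces also secrete the chitinase-like protein Ym1. The 8 genes described here were taken by symbol from 24421 listed genes. They are Nos2, Irg1 (also called Acod1) and Cd274, which are known from classical activation, Arg1, Retnla, Chil3 (also called Chi3l3 or Ym1) and Mgl2, known from alternative activation, and Arg2, the second arginase. All 8 were found, and all 8 passed the filter of a mean of at least 1 FPKM that left 12011 genes for testing.

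Transcripts were measured by poly(A) RNA sequencing in 4 mice on a C57BL/6 background, with 2 Usp25+/+ mice (animals 139 and 140) and 2 Usp25-/- mice (animals 826 and 850). Usp25 encodes a deubiquitinase, an enzyme that takes ubiquitin off other proteins. All 4 animals are labelled as females aged 8 weeks that received 2.5% dextran sulfate sodium (DSS), which damages the colon lining, for 5 days and water without DSS for 2 days. The labels give distal colon as the tissue, and the sources used here do not say which part of Usp25 is deleted. The comparison asks how the polarization genes differ between the genotypes under that treatment. Values are FPKM, read fragments divided by the length of the transcript and by the mapped total of the library, so that levels of different genes can be set side by side. The library totals ranged from 526652 to 565645 FPKM, and the number of reads behind them is unknown.

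The libraries went against some of their labels. Of 9 colon epithelium markers found, Cdx1 and Aqp8 were listed at 0 in every library and the mucin gene Muc2 did not exceed 0.193 FPKM. Car4, which lung endothelium also expresses, made up most of the sum of that list. The exception was the keratin gene Krt20, at 4.31, 3.11, 52.4 and 7.35 FPKM in 139, 140, 826 and 850, which brought the sum without Car4 in 826 to 53.8 FPKM. The summed level of 9 lung epithelium markers, among them the surfactant genes Sftpb and Sftpc, ranged from 2263 to 5266 FPKM. Xist, the RNA of the inactive X chromosome of females, stood at 0.11 FPKM or less, and the Y-linked gene Ddx3y at 12.7 to 30.3 FPKM. The values below are therefore described for libraries labelled by genotype and are not taken as measurements of colon. Usp25 itself was listed at 38.5 FPKM in 139, 16.6 in 140, 2.65 in 826 and 1.71 in 850, so the targeted gene followed the genotype labels.

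Animal 139 stood apart from the other 3 libraries. It listed 20556 genes above 0, against 15603 to 17242 in the others. All 10 neutrophil markers found, among them the calcium-binding protein genes S100a8 and S100a9, were highest in animal 139, with a sum of 41888 FPKM against 763, 2101 and 1239 FPKM in 140, 826 and 850. The sum of 9 macrophage markers was lowest there, at 16912 FPKM against 40753, 33474 and 33914 FPKM. Most of that sum was Lyz2 (lysozyme), at 12613 FPKM in 139 and at 31444 to 38922 FPKM in the others. The median of the 9 was instead highest in 139, at 142 FPKM against 69.3, 47.3 and 50.8 FPKM in 140, 826 and 850. Of the 9 markers 4 were highest in 139 and 5 in 140. The integrin gene Itgam stood at 268 FPKM in 139 against 14.2 to 17.3 FPKM. The 9 alveolar macrophage markers found, such as Marco and Siglecf, summed to 1063 FPKM in 139 and to 1462, 1321 and 1220 FPKM in 140, 826 and 850. Without Car4, which is also in that list, the sums were 870, 1063, 1044 and 852 FPKM, and 139 was not the lowest. No marker of these 3 lists was at 0 in any library except the neutrophil granule gene Camp in 140. In bulk tissue, fewer cells of a type and less RNA per cell cannot be told apart. The part that neutrophil content plays in the values below was not tested.

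The 8 genes did not share an order of libraries. Nos2, Arg2, Irg1 and Cd274 were each highest in animal 139 and at least 4 times the highest of the other 3 libraries there, a pattern that 2.78% of all tested genes showed, while 29.9% of tested genes were highest in 139. Chil3 and Retnla differed by no more than 2.01-fold between any libraries, Arg1 was highest in 826, and Mgl2 was lowest in 139. Chil3 and Mgl2 were the 2 of 8 that were lowest in 139, as were 39.4% of tested genes. The fold of 4 was chosen after the values were seen.

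**Figure D1:**
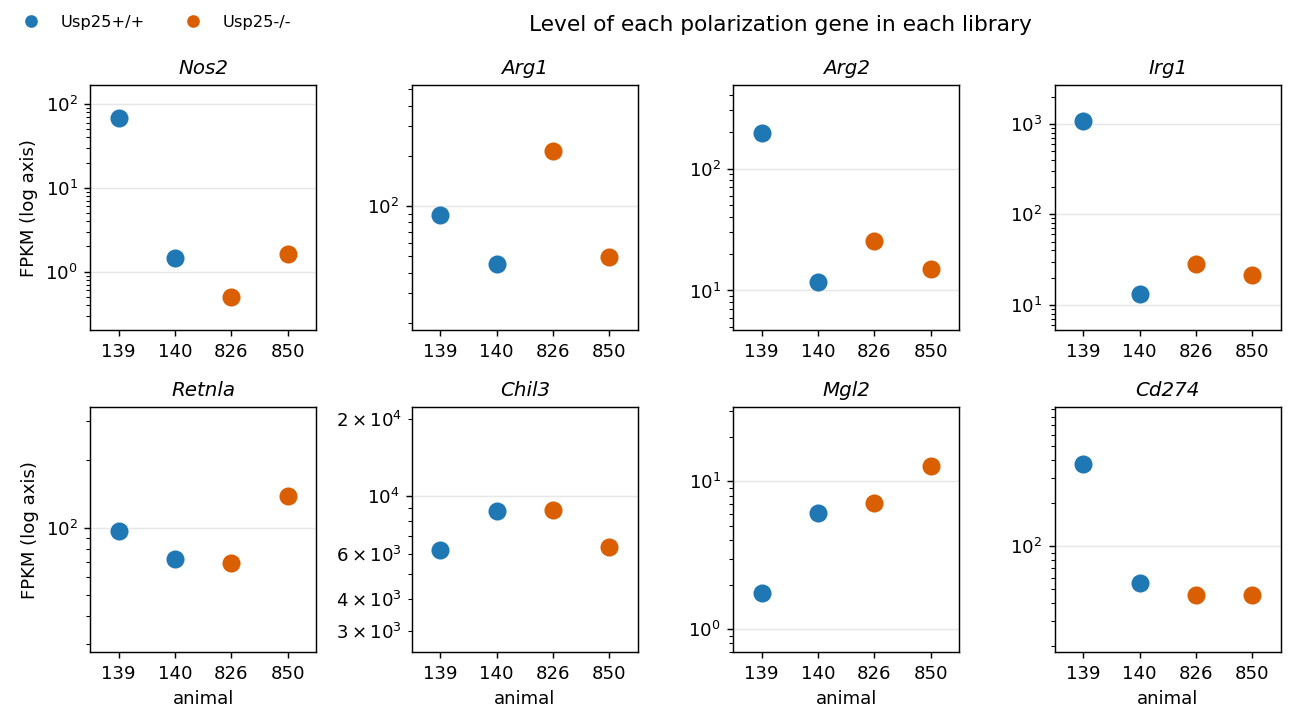
FPKM (log axis, its range set for each panel) of each of the 8 genes in each of the 4 libraries, blue for Usp25+/+ (139 and 140) and orange for Usp25-/- (826 and 850), 1 point per animal. Nos2, Arg2, Irg1 and Cd274 stand high in 139 alone, Arg1 in 826, and Chil3 stays between 6219 and 8882 FPKM.

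Nos2 encodes the inducible nitric oxide synthase, a marker of classical activation in mouse macrophages. The submitters' processing notes name the mouse assembly mm9, on which Nos2 spans chromosome 11 from 78734289 to 78773756 on the plus strand. It was listed at 67.7 FPKM in animal 139, 1.44 in 140, 0.501 in 826 and 1.61 in 850. Only 139 was high, and 140 lay between the Usp25-/- libraries, so that the genotypes overlapped. The means were 34.6 ± 46.8 FPKM in Usp25+/+ and 1.06 ± 0.787 FPKM in Usp25-/- (SD, n = 2 each). The log2 fold change of Usp25-/- over Usp25+/+ on log2(FPKM + 1) was -2.71 (SE 1.54; limma adjusted p = 0.960), and -0.30 without animal 139. In the 3 libraries other than 139, Nos2 was the lowest of the 8 genes, whereas in 139 it was above Mgl2.

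Irg1 encodes the mitochondrial enzyme that makes itaconate from cis-aconitate, and itaconate restrains succinate dehydrogenase and inflammatory cytokine output. The gene lies on mm9 chromosome 14 from 103446194 to 103455790 on the plus strand. Its level was 1078 FPKM in animal 139, 13.1 in 140, 28.6 in 826 and 21.4 in 850. The Usp25+/+ libraries thus differed by 82.3-fold and the Usp25-/- libraries by 1.34-fold, with 139 above and 140 below both Usp25-/- values. Its log2 fold change was -2.26 (SE 1.97; limma adjusted p = 0.960), and it turned to 0.87 without 139. Irg1 ranked 52 among all genes in 139 and between 2363 and 4358 in the others.

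Cd274 encodes PD-L1, the ligand through which macrophages and other cells restrain T cells that carry PD-1, and it is induced by interferon-gamma. It lies on mm9 chromosome 19 from 29441945 to 29462585 on the plus strand. The values were 374 FPKM in 139, 55.6 in 140, 45.3 in 826 and 45.5 in 850. Both Usp25+/+ libraries lay above both Usp25-/- libraries. Across all tested genes 33.8% did not overlap between the genotypes, 14.7% with the lower values in Usp25-/- as here and 19.0% with the higher. The log2 fold change was -1.65 (SE 0.90; limma adjusted p = 0.960) and shrank to -0.29 without 139. An exact permutation test over 4 libraries gave p = 0.333, the smallest that 2 against 2 allows. Pdcd1lg2, which encodes PD-L2, the other PD-1 ligand, stood at 8.69 FPKM in 139 and at 0.931, 1.32 and 1.11 FPKM in 140, 826 and 850. The ratio of Cd274 to Pdcd1lg2 was 43.0, 59.7, 34.4 and 41.0 in the order 139, 140, 826 and 850, so that both ligands were high in 139 and their ratio was not. The genotype difference of that ratio on log2(FPKM + 1) was -0.68 (exact permutation p = 0.333), and -0.48 without 139. The receptor gene Pdcd1 stood between 1.39 and 1.87 FPKM.

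The promoters of Irg1 and Cd274 are shown because both genes stood high in animal 139. The entries are from RefSeq on GRCm38.p6, 250 bases up to the transcription start, 5′ to 3′, with capitals for any motif match. Irg1 lies under the symbol Acod1 on the plus strand at chr14:103046762-103047011, and Cd274 on the plus strand at chr19:29367188-29367437.
Acod1: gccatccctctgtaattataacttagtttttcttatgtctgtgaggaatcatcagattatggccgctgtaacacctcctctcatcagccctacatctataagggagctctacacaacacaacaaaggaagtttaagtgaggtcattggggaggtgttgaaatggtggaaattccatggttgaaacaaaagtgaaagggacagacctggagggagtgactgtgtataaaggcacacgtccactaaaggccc
Cd274: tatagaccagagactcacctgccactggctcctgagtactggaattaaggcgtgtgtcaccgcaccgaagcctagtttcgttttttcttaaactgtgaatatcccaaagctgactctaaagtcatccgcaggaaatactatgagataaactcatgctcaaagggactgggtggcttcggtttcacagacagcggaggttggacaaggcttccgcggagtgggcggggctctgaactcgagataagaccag
Both strands of the window, extended 50 bases past the start, were searched for the gamma-activated site TTCNNNGAA, the interferon-stimulated response element TTTCNNTTTC, an NF-kB site as GGGANNTTCC or GGGANNCTCC, and the STAT6 site TTCNNNNGAA. The 2 promoters held none of them, which says only that these letters do not stand in this window. Of 32851 promoters in the table, 8.30% held the gamma-activated site, 3.44% the interferon-stimulated element, 3.19% an NF-kB site and 6.95% the STAT6 site. Mgl2 held none either, and Nos2, Arg1 and Arg2 were not looked at in this way.

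The arginases differed from each other. Arg1, the cytosolic arginase and the usual marker of alternative activation in mouse macrophages, lies on mm9 chromosome 10 from 24635014 to 24647276 on the minus strand. It was listed at 88.0 FPKM in 139, 45.2 in 140, 213 in 826 and 49.8 in 850. Its highest value came from Usp25-/- animal 826, at 2.42 times the next library, and 850 lay between the Usp25+/+ values. The log2 fold change was 0.70 (SE 0.77; limma adjusted p = 0.960), or -0.34 without 826. In 826, Csf2, which encodes the growth factor GM-CSF, also stood highest, at 48.0 FPKM against 2.60 to 6.35 FPKM in the others, as did Krt20, the colon epithelium marker named above. Whether these levels bear on Arg1 was not tested.

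Arg2, the mitochondrial arginase, lies on mm9 chromosome 12 from 80231764 to 80257288 on the plus strand. It stood at 194 FPKM in 139, 11.8 in 140, 25.5 in 826 and 15.0 in 850. Animal 139 was 7.62 times the next library, and 140 was the lowest. The log2 fold change was -1.28 (SE 1.27; limma adjusted p = 0.960), which turned to 0.69 without 139. The gene overlaps Vti1b on the opposite strand, and 186 of 1329 windows of 100 bases in its longest transcript also occur in Vti1b, so that reads without strand cannot be assigned there. Vti1b, a vesicle fusion gene, was lowest in 139 at 35.4 FPKM and stood at 46.2 to 62.0 FPKM in the others, opposite to Arg2.

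Ratios of FPKM within a library do not depend on how that library was scaled. Differences taken on log2(FPKM + 1) can depend on it where a value is low. Arg1 exceeded Nos2 1.30-fold in 139, 31.4-fold in 140, 425-fold in 826 and 30.9-fold in 850. Animals 140 and 850, of different genotypes, were thus nearly alike, while 139 and 826 lay at the ends. The genotypes differed by 3.41 on the log2 scale of FPKM + 1 (exact permutation p = 0.333, two-sided, over 4 libraries), with SDs of 2.74 in Usp25+/+ and 2.03 in Usp25-/- (n = 2 each). The FPKM ratios themselves overlapped between genotypes, with 140 just above 850, so this p depends on the 1 added to the FPKM. The difference was 1.47 without 139, 1.97 without 826 and 5.34 without 140. With 5 or 0.1 added to the FPKM in place of 1 it was 2.52 or 4.04. The 425-fold ratio in 826 rests on Nos2 at 0.501 FPKM. The ratio of Arg1 to Arg2 was 0.453, 3.82, 8.35 and 3.31 in 139, 140, 826 and 850, so that Arg2 was the more abundant arginase in 139 alone. The genotype difference of that ratio was 1.98 (exact permutation p = 0.667), and 0.49 without 139.

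**Figure D2:**
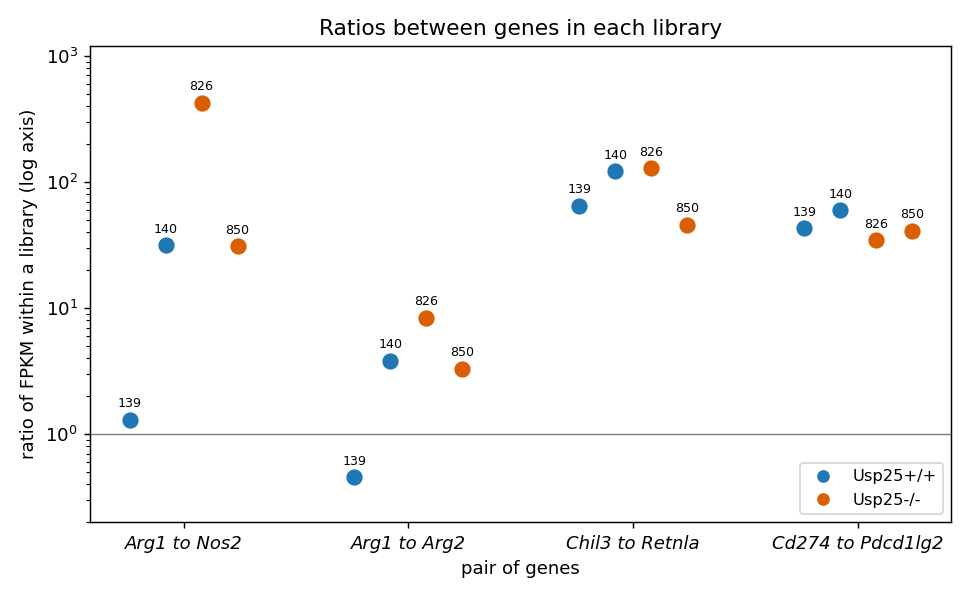
Ratio of the FPKM of 2 genes within each library (log axis), 1 point per animal, blue for Usp25+/+ and orange for Usp25-/-, with the line at a ratio of 1. The Arg1 to Nos2 ratio runs from 1.30 in 139 to 425 in 826 with 140 and 850 close together at 31.4 and 30.9, whereas the Cd274 to Pdcd1lg2 ratio stays between 34.4 and 59.7.

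Chil3 encodes Ym1, a chitinase-like lectin without chitinase activity that lung macrophages secrete in quantity. It was by far the most abundant of the 8 genes, at 6219 FPKM in 139, 8777 in 140, 8882 in 826 and 6380 in 850. These values made it the gene ranked 7, 6, 5 and 8 in the 4 libraries and 1.16% to 1.61% of all FPKM. The lower pair held 1 animal of each genotype, as did the higher pair. The means were 7498 ± 1809 FPKM in Usp25+/+ and 7631 ± 1769 FPKM in Usp25-/- (SD, n = 2 each). On the log2 scale the genotypes differed by 0.03 (SE 0.51; limma adjusted p = 0.996). The gene lies on the minus strand of mm9 chromosome 3, where the GENCODE vM1 model runs from 105950472 to 106022425 and overlaps that of its neighbour Chil4. The longest transcripts of Chil3 and Chil4 were 94.2% identical, and 54 of 1440 windows of 100 bases were shared, so that some reads can be split between them. Chil4, which encodes Ym2, stood at 18.2, 19.9, 21.7 and 28.4 FPKM in 139, 140, 826 and 850. Chil3 was 225 to 442 times as abundant. The related Chil1, which encodes the chitinase-like protein BRP-39, was high in 139, at 543 FPKM against 39.3 to 67.1 FPKM. Chit1, an active chitinase of macrophages, stood at 0.361 and 0.25 FPKM in Usp25+/+ against 1.90 and 1.58 FPKM in Usp25-/-. With the paralogs of the other genes, and the members themselves, 16 were tested, of which 7 had positive and 9 negative log2 fold changes and 0 passed.

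Retnla encodes the secreted protein RELM-alpha (FIZZ1), which IL-4 and IL-13 induce in macrophages and airway epithelium of the mouse. It lies on mm9 chromosome 16 from 48842665 to 48844574 on the plus strand. It was listed at 96.3 FPKM in 139, 72.2 in 140, 69.1 in 826 and 139 in 850. The Usp25-/- libraries held both the lowest and the highest value. The log2 fold change was 0.23 (SE 0.44; limma adjusted p = 0.967). The ratio of Chil3 to Retnla was 64.6, 122, 129 and 46.0 in 139, 140, 826 and 850, and its genotype difference on the log2 scale was -0.20 (exact permutation p = 1). Retnlg, the neighbouring paralog that is known from neutrophils and bone marrow, behaved otherwise, at 2073 FPKM in 139 and 24.5, 80.6 and 49.1 FPKM in 140, 826 and 850. Retnlb, the paralog of gut goblet cells, did not exceed 0.457 FPKM. The transcripts of Retnla and Retnlg shared no window of 100 bases.

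The promoters of Chil3, Retnla and their paralogs are shown because the members of each pair hold the same motif, while their levels differ. They are the 250 bases before the start in RefSeq on GRCm38.p6, 5′ to 3′ on the strand of the gene, at chr3:106167565-106167814 (minus strand) for Chil3, chr3:106219480-106219729 (minus strand) for Chil4, chr16:48842359-48842608 (plus strand) for Retnla and chr16:48872358-48872607 (plus strand) for Retnlg. Capitals mark the match to the gamma-activated site TTCNNNGAA in Chil3 and Chil4 and to the STAT6 site TTCNNNNGAA in Retnla and Retnlg.
Chil3: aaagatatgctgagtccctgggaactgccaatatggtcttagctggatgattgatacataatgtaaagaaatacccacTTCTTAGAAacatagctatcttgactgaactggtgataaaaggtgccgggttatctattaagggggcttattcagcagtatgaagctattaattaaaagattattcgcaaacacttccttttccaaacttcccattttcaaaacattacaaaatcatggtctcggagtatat
Chil4: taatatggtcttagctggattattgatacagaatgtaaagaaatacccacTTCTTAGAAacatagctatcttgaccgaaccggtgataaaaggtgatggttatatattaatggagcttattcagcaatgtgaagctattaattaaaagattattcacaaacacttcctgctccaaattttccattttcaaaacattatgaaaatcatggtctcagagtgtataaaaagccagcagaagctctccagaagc
Retnla: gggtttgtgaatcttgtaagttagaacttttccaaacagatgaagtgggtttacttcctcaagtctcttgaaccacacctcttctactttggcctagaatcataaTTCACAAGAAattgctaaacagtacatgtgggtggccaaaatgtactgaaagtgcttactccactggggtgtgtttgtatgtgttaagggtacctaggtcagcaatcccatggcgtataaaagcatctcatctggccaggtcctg
Retnlg: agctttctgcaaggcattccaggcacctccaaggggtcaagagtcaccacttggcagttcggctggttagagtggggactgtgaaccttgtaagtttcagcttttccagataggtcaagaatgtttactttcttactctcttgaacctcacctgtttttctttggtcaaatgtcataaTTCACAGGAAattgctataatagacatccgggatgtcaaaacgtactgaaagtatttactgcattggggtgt
In Chil3 the match TTCTTAGAA begins 172 bases before the start, and in Chil4 the same letters begin 200 bases before it. In Retnla TTCACAAGAA begins 145 bases before the start, and in Retnlg TTCACAGGAA begins 72 bases before it. Both motifs read the same on either strand, so that each match counts once, and no other searched motif was found in the 4 promoters. A match is a description of the sequence. In a global alignment of these 250 bases the Chil3 and Chil4 promoters were identical in 202 of 279 columns (72.4%). Those of Retnla and Retnlg were identical in 140 of 325 columns (43.1%). Gaps count among the columns, so these shares are lower than the identity of the bases that were paired.

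Mgl2 encodes CD301b, a lectin for galactose and N-acetylgalactosamine on alternatively activated macrophages and some dendritic cells. It lies on mm9 chromosome 11 from 69943831 to 69951052 on the plus strand. Its level was 1.74 FPKM in 139, 6.13 in 140, 7.13 in 826 and 12.8 in 850. It was the only one of the 8 genes whose Usp25-/- libraries both lay above both Usp25+/+ libraries, where 19.0% of tested genes did so. The means were 3.94 ± 3.10 FPKM in Usp25+/+ and 9.95 ± 3.98 FPKM in Usp25-/- (SD, n = 2 each). The log2 fold change was 1.26 (SE 0.56; limma unadjusted p = 0.0715, adjusted p = 0.960), the smallest unadjusted p of the 8, and 0.57 without 139. Its neighbour Clec10a, which encodes the related lectin CD301a, was highest in 139 at 5.74 FPKM and stood at 2.35, 2.51 and 4.32 FPKM in 140, 826 and 850. Of 1536 windows of 100 bases in Mgl2, 91 also occur in Clec10a. Rn45s, the ribosomal RNA precursor, followed the same order of libraries as Mgl2, at 2820, 6643, 7362 and 10680 FPKM in 139, 140, 826 and 850, and its part in the Mgl2 values was not tested. The 7 dendritic cell markers found summed to 19.4, 17.4, 11.4 and 26.8 FPKM in 139, 140, 826 and 850, an order unlike that of Mgl2. Most of each sum was Ccr7, at 13.4, 11.3, 6.86 and 16.2 FPKM.

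None of the 8 genes passed the test between genotypes. Usp25, the targeted gene, did not pass either, at a log2 fold change of -3.07 (SE 0.47; limma unadjusted p = 0.00107, adjusted p = 0.960). Not passing this test therefore does not show that a gene is unchanged. Limma called 0 of 12011 genes at an adjusted p of 0.05, which is 0% of them, and 375 at an unadjusted p of 0.05, or 3.12%, with 0 of the 8 genes among these. Of the 8, 4 had a negative log2 fold change, where 46.5% of tested genes did, and 5 did under median ratio scaling, where Chil3 turned to -0.0061. Their median log2 fold change was -0.63 against 0.03 for all tested genes, and without animal 139 it was 0.50 against -0.01. Nos2, Irg1 and Arg2 had SDs of 3.41, 4.42 and 2.78 on the log2 scale within Usp25+/+, larger than their differences between genotypes.

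**Figure D3:**
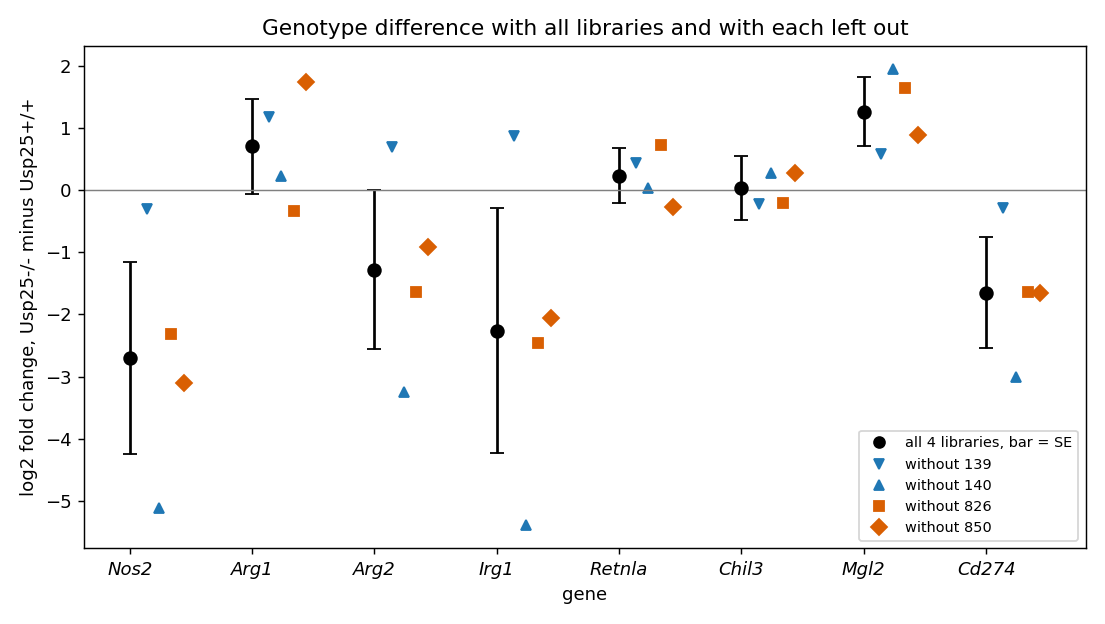
Log2 fold change of Usp25-/- over Usp25+/+ on log2(FPKM + 1) for each gene, in black with all 4 libraries (bar = limma SE) and in colour with 1 library left out, blue where a Usp25+/+ and orange where a Usp25-/- library was left out. Without 139 Irg1 turns from -2.26 to 0.87 and Arg2 from -1.28 to 0.69, and Mgl2, Nos2 and Cd274 keep their direction in all 4 cases.

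Genes upstream of polarization were read from lists. Of the cytokines that polarize macrophages, Il13 was listed at 0 in every library and Il4 at 0.208 FPKM in 139 and at 0 in the others. Ifng, which encodes interferon-gamma, stood at 8.36 FPKM in 139, 0.456 in 140 and 0 in both Usp25-/- libraries. Of 5 tested cytokines 3 had negative and 2 positive log2 fold changes, 0 passed, and the median was -0.03, or 0.74 over those averaging 5 FPKM or more. Ifng, one of those with a negative value, passed the filter only through its level in 139. Il33, an alarmin of epithelial cells, had the largest change at 2.37 (SE 0.49; limma adjusted p = 0.960), with 30.2 FPKM in 139, 35.2 in 140, 268 in 826 and 112 in 850. The anti-inflammatory cytokine Il10 had a log2 fold change of -1.01 that was -0.004 without 139, and that of Csf2 was 1.52 but -0.22 without 826. Among 13 tested receptors 12 had negative values, where 46.5% of all tested genes did, and 11 were highest in 139, where 29.9% were. Their median was -0.47, which became -0.09 without 139, and 0 passed. The receptor gene Il1rl1, which is in both counts, passed the filter only through its level in 139. Il10rb and Il10ra, the chains of the IL-10 receptor, stood at 161 and 88.6 FPKM in 139 and at 51.1 to 85.3 and 25.4 to 35.4 FPKM in the others. Tlr4, the endotoxin receptor, had a log2 fold change of -0.86 that turned to 0.03 without 139, and stood at 48.9 FPKM in 139 against 12.4 to 15.3 FPKM.

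Of 16 transcription factors 13 had negative log2 fold changes and 10 were highest in 139, against 46.5% and 29.9% of all tested genes. Their median was -0.34, or -0.19 without 139, and 0 passed. The factor Irf4, which is in both counts, passed the filter only through its level in 139. Irf1, a factor of the interferon response, stood at 242 FPKM in 139, 78.6 in 140, 30.6 in 826 and 46.0 in 850. Its log2 fold change was -1.85 (SE 0.60), and that of the histone demethylase Kdm6b was -1.01 (SE 0.42), or -1.05 and -0.50 without 139. Irf1 and Irf8 were the 2 factors with an unadjusted limma p under 0.05, at 0.0265 and 0.0427, where 3.12% of all tested genes were. Irf8 was named for that after its values were seen. Stat6, the factor that IL-4 and IL-13 activate, stood at 57.4 and 51.8 against 33.5 and 34.9 FPKM, while Pparg, which alveolar macrophages need, stood at 27.4 and 54.3 against 80.4 and 66.6 FPKM. Neither passed, and both were also picked with their values known.

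Most other classical activation genes were highest in animal 139, as Nos2 and Irg1 were, but the size of the lead varied. Of 19 tested, 18 were highest in 139 and 18 had a negative log2 fold change, against 29.9% and 46.5% of all tested genes. Their median was -0.98, or -0.05 without 139 and -2.65 without 140, and 0 passed. In 10 of the 19 animal 139 was at least 4 times the next library. Among the 15 with a mean of at least 1 FPKM in the other 3 libraries this held for 8, where 2.15% of all such genes showed it. The genes left out there, Il12a, Il12b, Cxcl11 and Slamf1, passed the filter only through their level in 139. They are in the counts over 19, so those counts are partly fixed by the filter. The interferon-induced chemokine Cxcl9 had the largest change among those averaging 5 FPKM or more, at -3.32 (SE 1.31), followed by Cxcl10 at -2.48 (SE 1.01) and Tnf at -2.05 (SE 0.75), and these were -1.27, -0.92 and -0.99 without 139. Tnf was the 1 gene of the list with an unadjusted limma p under 0.05, at 0.0395, which for 1 of 19 genes is near the 3.12% of all tested genes. In 7 of the 19 both Usp25-/- libraries lay below both Usp25+/+ libraries, as in 14.7% of all tested genes. Il12b and Cxcl11, which passed the filter only through 139, are among the 7.

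Other alternative activation genes were divided between the libraries. Of 18 tested, 8 were highest in 139 and 3 were at least 4 times the next library there, namely the interleukin-1 receptor antagonist Il1rn, the amino acid oxidase Il4i1 and Pdcd1lg2. Among the 17 with a mean of at least 1 FPKM in the other 3 libraries, which leaves out Il4i1, this held for 2, where 2.15% of all such genes showed it. Il4i1 passed the filter only through its level in 139, and the counts over 18 include it. The median log2 fold change of the 18 was -0.16, with 7 positive and 11 negative values and 0 past the test. The median was 0.04 without 139, -0.32 without 140, 0.06 without 826 and -0.47 without 850. Il1rn stood at 1263 FPKM in 139 and at 71.3, 102 and 53.0 FPKM in 140, 826 and 850. The mannose receptor Mrc1 stood between 149 and 193 FPKM in all 4. For the transglutaminase Tgm2 the genotypes differed by -0.87 (SE 0.36) on the log2 scale and for the chemokine Ccl17 by 0.64 (SE 0.36), or 0.33 without 140, both without overlap. Of the 18 genes, 4 lay higher in Usp25-/- without overlap and 4 lay lower. Across all tested genes 19.0% and 14.7% did so. Alox15, a lipoxygenase, had the smallest unadjusted limma p of the list at 0.00484, with 1.28 FPKM in 139, 0.499 in 140, 4.48 in 826 and 5.68 in 850. It and Mrc1 were picked with their values known.

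The wider arginine and citrate pathways held few genes that were highest in animal 139. Of 19 tested genes of arginine, polyamine and nitric oxide metabolism, 14 had positive and 5 negative log2 fold changes, with a median of 0.15 that turned to -0.05 without 826. Slc7a2, Gch1 and Pts were the 3 that were highest in 139, and none was 4 times higher there. Slc7a2, the arginine transporter of activated macrophages, stood at 108 and 59.5 against 42.4 and 51.3 FPKM. Its log2 fold change was -0.77 (SE 0.40), against -0.56 for Pts and 0.64 for Spr, which encode enzymes that make the nitric oxide synthase cofactor tetrahydrobiopterin. Without 139 these were -0.35, -0.33 and 0.11. Ass1, which rebuilds arginine from citrulline, stood between 0.317 and 6.44 FPKM and was highest in 826, like Arg1. The other nitric oxide synthases were low, Nos1 at 0.226 FPKM or less and Nos3, the endothelial form, at 1.22 to 5.32 FPKM. Of 22 genes of the tricarboxylic acid cycle and of itaconate handling, 17 had positive log2 fold changes, with a median of 0.17 or -0.002 without 139, and none was highest in 139. The mitochondrial dicarboxylate carrier Slc25a10 differed by 0.86 (SE 0.48) on the log2 scale, the isocitrate dehydrogenase Idh1 by 0.57 and the citramalyl-CoA lyase Clybl by 0.54. Slc25a10 was 0.31 without 826, and Idh1 and Clybl were 0.21 and 0.22 without 139. Of these lists 0 genes passed, and 46.5% of all tested genes had a negative log2 fold change. Ass1 and Gch1 were picked with their values known.

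**Figure D4:**
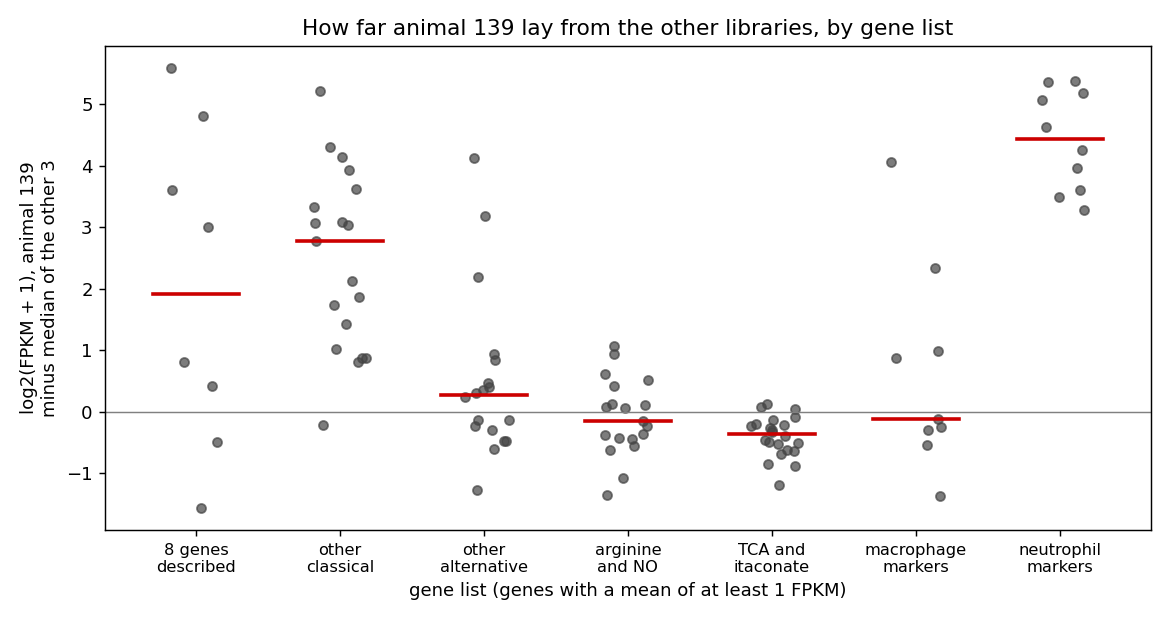
Log2(FPKM + 1) in animal 139 minus the median of the other 3 libraries, 1 point per tested gene and sideways scatter for visibility only, with a red line at the median of each list. The median is 1.91 for the 8 genes, 2.78 for other classical, 0.26 for other alternative, -0.15 for arginine and -0.37 for tricarboxylic acid cycle genes, -0.12 for macrophage and 4.44 for neutrophil markers, against -0.11 for all tested genes. Il12a, Il12b, Cxcl11, Slamf1, Il4i1 and Camp passed the filter only through their level in 139.

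Genes with the most similar profiles were sought by the root-mean-square difference of log2(FPKM + 1), centred on each gene's mean over the 4 libraries, over genes averaging 5 FPKM or more. With 4 libraries this is a description, and many genes that are high in 139 come out alike. Nearest to Nos2 were the interferon-induced GTPase genes Gbp2 and Gbp5, at differences of 0.19 and 0.25. Nearest to Irg1 were Ifitm6 (0.06) and Retnlg (0.23), to Arg2 were Srgn (0.08), which encodes the granule proteoglycan serglycin, and Marcksl1 (0.08), and to Cd274 were the phagosomal metal transporter Slc11a1 (0.10) and Fgd3 (0.10). Gbp2 stood at 554, 24.8, 12.7 and 18.7 FPKM and Ifitm6 at 525, 5.88, 13.3 and 11.1 FPKM in 139, 140, 826 and 850. In the first 140 was above both Usp25-/- libraries and in the second below both. Nearest to Arg1 were the epithelial genes Fgfbp1 (0.05) and Cldn4 (0.14), a claudin that stood at 117, 60.1, 332 and 81.8 FPKM. Nearest to Retnla were the airway secretoglobin Scgb3a2 (0.07) and Snord47 (0.07), to Chil3 were Ovca2 (0.03) and Ten1 (0.04), and to Mgl2 were Rn45s (0.15) and the matrix protein gene Sparc (0.17). Among the 8 genes themselves the closest pair was Arg2 and Cd274 at 0.53, then Chil3 and Retnla at 0.62 and Nos2 and Irg1 at 0.70.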

How the data were processed

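The deposited values are 1 FPKM per gene and library. The unit is taken from Cufflinks, which the submitters' processing notes name beside cutadapt, TopHat2 2.1.1 and mm9. The sources used here give neither annotation nor filters. Per the labels' protocols, libraries were not directional, so overlapping genes on opposite strands share reads, and reads were paired with 100 bases. Dividing by the library total lets abundant genes lower the rest. Depth is unknown, and no counting interval is given.

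Groups came from the titles, with 2 animals each and no shared numbers. The genotype test was limma 3.58.1, run in R 4.3.3 (eBayes with trend, two-sided), on log2(FPKM + 1), so that folds of low genes come out too small. It covered genes averaging 1 FPKM or more, with Benjamini-Hochberg adjustment over all 12011 and a threshold of 0.05. The fit was tested on simulated data in which no single library was made to stand apart from the rest, unlike these data. P-values over 2 animals each rest on a spread shared across genes.

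The members and lists were chosen with earlier results of these data known. Named were Usp25, the 8 genes, the 3 largest absolute log2 fold changes of each list over genes averaging 5 FPKM or more, paralogs and the 2 most similar profiles, predicted genes left out. One gene that this rule takes is not reported here. Further genes are marked as chosen after their values were seen, and marker and label-check genes were also named. Gene positions are from GENCODE vM1 (mm9). Alternatives were other pseudocounts, filters, scalings and variance models, and leaving out each library.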

Additional observations from a re-analysis of the deposited data

How the results depend on the processing

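Across 13 alternatives (pseudocounts of 0.1 and 5, no filter or a mean of at least 5 FPKM, 3 other scalings, 2 other variance models and each library left out), limma called 0 genes and 0 of the 8 described. Genes at an unadjusted p of 0.05 numbered 375, but 569 without the filter, 227 with a mean of at least 5 FPKM, and 108 (without 826) to 2593 (without 140) with a library left out (578 without 139), where fewer samples are fitted and a lone library is assumed to vary like the others. With a library left out, the log2 fold change ranged from -0.34 to 1.74 for Arg1, -3.24 to 0.69 for Arg2, -5.39 to 0.87 for Irg1, -0.27 to 0.73 for Retnla and -0.22 to 0.28 for Chil3, and the log2 ratio of Chil3 to Retnla from -0.94 to 0.53. Chil3 was also -0.0061 under median ratio scaling. Nos2 (-5.12 to -0.30), Mgl2 (0.57 to 1.95) and Cd274 (-3.01 to -0.29), and the other 3 ratios, kept their direction in every setting run. The medians of the receptor, transcription factor, classical, alternative and arginine and tricarboxylic acid cycle lists kept their sign under the 9 settings with all libraries, and that of the cytokines turned to 0.74 with a mean of at least 5 FPKM. The count of negative log2 fold changes among the 8, an alternative added after the data were seen, ranged from 3 to 6. No paired analysis was possible because the animals of the genotypes share no numbers. Unknown depth limits the low values of Nos2 and Mgl2.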
